A study of Mus musculus with 12 samples.

Results

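Matrix metalloproteinases (MMPs) and their tissue inhibitors (TIMPs) were followed in the thoracic aorta of ApoE-/- mice. The set was chosen by symbol from the deposited count table: 6 protease genes (Mmp2, Mmp3, Mmp9, Mmp12, Mmp13 and Mmp14) and 4 inhibitor genes (Timp1, Timp2, Timp3 and Timp4). All 10 were among the 25284 genes of the table and all 10 passed the filter on low counts, as did 15857 genes in all. The animals were male ApoE-/- mice on a C57BL/6 background, which lack apolipoprotein E and develop atherosclerosis. All received a diet rich in fat and cholesterol and carried osmotic minipumps under the skin from 10 weeks of age. The pumps delivered vehicle (cyclodextrin in saline) to 6 control mice, here C1 to C6, or the α7nAChR agonist AZ6983 at 50 µmol per kg per day to 6 mice, here A1 to A6, for 8 weeks. RNA was taken at 18 weeks of age, and each library comes from 1 mouse. The aim was to see how stimulation of the alpha 7 nicotinic acetylcholine receptor alters the transcripts of the plaque-prone vessel.

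MMPs are zinc-dependent proteases that are made as inactive precursors and cut collagen, elastin and other matrix proteins once their propeptide is removed. TIMPs bind the active site of these enzymes, and TIMP2 also takes part in the activation of pro-MMP2 at the cell surface together with the membrane-anchored MMP14. In the atherosclerotic wall these enzymes are known from macrophages, foam cells, fibroblasts and smooth muscle cells, and they are studied for their part in thinning of the fibrous cap, breaks in the elastic laminae and migration of smooth muscle cells. Messenger RNA says nothing on whether the protease is active.

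The proteases Mmp13, Mmp12 and Mmp3 lie in one region of chromosome 9 of the mouse genome (GRCm38, the same build as mm10), on the plus strand. The annotation places Mmp13 at chr9:7272514-7283331, Mmp12 at chr9:7344381-7369499 and Mmp3 at chr9:7445822-7455975, and all are protein coding. Several MMP genes are known as targets of AP-1, a transcription factor formed by Fos and Jun proteins. The 150 bases before the start site (RefSeq, GRCm38.p6) are shown for Mmp13, Mmp12 and Mmp3 and for Timp1, because the levels of Mmp12, Mmp13 and Timp1 varied together from mouse to mouse. Capitals mark the letters TGANTCA, the AP-1 motif that was searched, which reads the same on both strands.
Mmp13 (chr9:7272364-7272513, plus strand): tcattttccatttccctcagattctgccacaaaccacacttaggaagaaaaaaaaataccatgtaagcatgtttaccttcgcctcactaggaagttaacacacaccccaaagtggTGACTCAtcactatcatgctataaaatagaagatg
Mmp12, the second of its 2 start sites (chr9:7347224-7347373, plus strand): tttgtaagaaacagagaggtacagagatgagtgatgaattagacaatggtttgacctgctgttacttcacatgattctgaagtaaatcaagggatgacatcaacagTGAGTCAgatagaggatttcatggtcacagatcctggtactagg
Mmp3 (chr9:7445672-7445821, plus strand): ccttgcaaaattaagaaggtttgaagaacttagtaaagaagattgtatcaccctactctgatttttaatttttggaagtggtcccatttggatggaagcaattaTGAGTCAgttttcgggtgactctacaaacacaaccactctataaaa
Timp1 (chrX:20870016-20870165, plus strand): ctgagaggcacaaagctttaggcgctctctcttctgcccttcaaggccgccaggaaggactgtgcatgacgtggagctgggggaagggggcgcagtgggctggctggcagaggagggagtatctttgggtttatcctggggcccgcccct
The motif began 35 bases before the start site in Mmp13, 44 in Mmp12 and 46 in Mmp3, and these letters were not in the windows of Timp1 and of the first start site of Mmp12. Of the 10 genes, 8 had a promoter in the RefSeq table, and the motif stood in the 250 bases before a start site in 3 of the 8, against 7.82% of all 27025 genes in that table. A match of letters describes the sequence and was not tested as a binding site.

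The 12 libraries held 23810036 to 35864666 counts on genes, and the 10 genes together took 0.124% to 0.223% of them. The labelled tissue carried its markers in every library: the summed level of 8 smooth muscle genes such as Acta2 and Myh11 was 10615 to 18171 CPM (counts scaled to library size with edgeR's TMM factors), and that of 8 fibroblast genes was 2476 to 3871 CPM. Fat genes were also present in every mouse, at a summed 3474 to 8218 CPM for 9 white fat genes and 2507 to 6115 CPM for 8 brown fat genes. Mouse A4 stood apart for T cell and thymocyte genes (mean log2 CPM of 6.36, the other mice −1.49 to 1.90), and in mouse A5 the 10 most abundant genes took 30.2% of the counts, against at most 22.1% elsewhere. Reads on no gene were 8.02% to 12.7% of all reads in control mice and 11.2% to 14.9% in AZ6983 mice, with mouse A2 highest. In whole aorta, fewer cells of a type and less RNA per cell cannot be told apart.

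Across the genes, levels per length of transcript (RPKM, the CPM divided by the annotated exon length in kilobases) covered a wide range. Timp3, an inhibitor that binds to the extracellular matrix, was the highest at 107 to 141 RPKM over the 12 mice, followed by Timp2 at 82.1 to 129 RPKM. Mmp3 (stromelysin 1), a protease of broad specificity that can also activate other pro-MMPs, had 42.7 to 123 RPKM, and Mmp2 (gelatinase A) 29.2 to 54.1 RPKM. Timp1 had 12.7 to 43.9 RPKM. The remaining genes were lower. Mmp14, Timp4 and Mmp12 had mean levels of 8.77, 6.85 and 6.10 RPKM, Mmp9 (gelatinase B) had 2.20 RPKM and Mmp13 (collagenase 3) had 0.672 RPKM. The ranges of neighbouring genes in this order overlapped in 8 of 9 cases, and Timp1 against Mmp14 was the exception. In each of the 12 mice, Timp3 was above Timp2 and Mmp3 above Mmp2, while Mmp14 was above Timp4 in 8 of the mice. The length used for each gene joins the exons of all its annotated transcripts, and a long joined length makes RPKM low relative to CPM. It was 7237 bases for Mmp12, 8144 for Timp3, 5960 for Mmp14 and 5894 for Timp4. The order of the genes depends on these lengths.

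**Figure D1:**
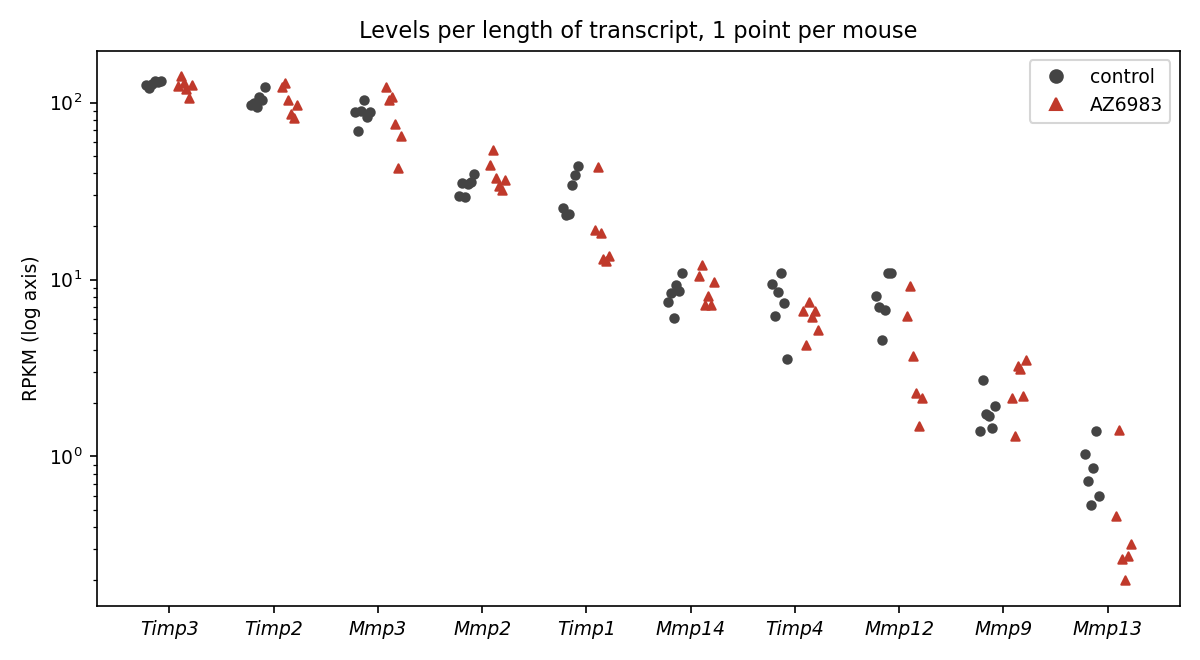
RPKM of each gene (log axis) in each of 6 control (circles) and 6 AZ6983 mice (triangles), with genes ordered by their mean over all mice. Timp3, Timp2 and Mmp3 lay highest, between 42.7 and 141 RPKM, and Mmp13 lowest, with a mean of 0.672 RPKM.

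When 6 AZ6983 mice were compared with 6 controls by edgeR's quasi-likelihood test, 0 of the 10 genes passed a false discovery rate (FDR) of 10%, the threshold used in the study, and 0.0% of all 15857 genes tested did so. An unadjusted p under 0.05 was found for 3 of the 10 genes and for 1616 genes in all (10.2%). Of these 3, Mmp12 and Timp1 were lower in AZ6983 mice, where 2.81% of all genes were, and Mmp9 was higher, where 7.38% were. DESeq2 called 92 genes at 10% FDR (0.523%) and none of the 10. The log2 fold change was negative for 7 of the 10 genes and for 47.6% of all genes. The median log2 fold change of the 10 genes was −0.03, beside 0.01 for all genes tested.

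**Figure D2:**
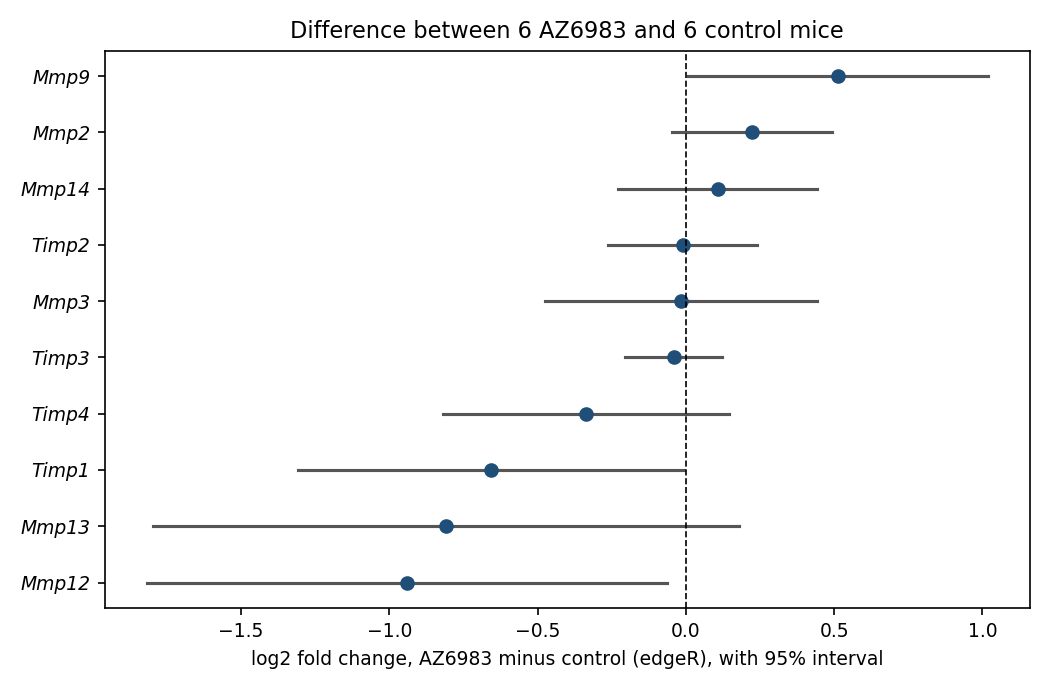
Log2 fold change of each gene (AZ6983 minus control, points) with its 95% interval from edgeR (lines, n = 6 mice per group). Mmp12 lay lowest at −0.94 and Mmp9 highest at 0.51, and the intervals of Mmp2, Mmp3, Mmp13, Mmp14, Timp2, Timp3 and Timp4 include 0.

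Mmp12 encodes macrophage elastase, which cuts elastin and is made mainly by macrophages. It was at 33.1, 54.3 and 79.2 CPM (lowest, median and highest) in control mice and at 10.7, 21.5 and 66.9 CPM in AZ6983 mice. Thus 4 of 6 AZ6983 mice lay below every control, while A1 and A2, at 45.2 and 66.9 CPM, were within the control range. The log2 fold change was −0.94 (standard error 0.405, 95% interval −1.82 to −0.06, unadjusted p = 0.0374 and adjusted p = 0.475 from edgeR). The difference in mean log2 CPM had p = 0.0346 (exact permutation test, two-sided, not adjusted for the 10 genes).

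Mmp13 encodes collagenase 3, the main interstitial collagenase of rodents. It had few reads, with 41 to 107 counts in control mice and 18 to 105 in AZ6983 mice. Its level was 1.41, 2.12 and 3.71 CPM (lowest, median and highest) in controls and 0.532, 0.796 and 3.78 CPM in AZ6983 mice. Here 5 of 6 AZ6983 mice lay below every control, at 1.23 CPM or less, and the remaining mouse, A2, was above every control. With all mice the log2 fold change was −0.81 (standard error 0.456, edgeR's adjusted p = 0.541) and the exact permutation p was 0.0498.

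Timp1, an inducible inhibitor of most secreted MMPs, showed the same arrangement of mice. Its level was 20.7, 26.5 and 39.0 CPM (lowest, median and highest) in controls and 11.2, 14.2 and 38.3 CPM in AZ6983 mice. Again 5 of 6 AZ6983 mice, at 11.2 to 16.9 CPM, lay below the lowest control and A2, at 38.3 CPM, was near the highest. The log2 fold change was −0.66 (standard error 0.301, unadjusted p = 0.0483 and adjusted p = 0.487 from edgeR), and the exact permutation p was 0.0390. The protease genes Mmp12 and Mmp13 and the inhibitor gene Timp1 were therefore lower together in A3 to A6, and A2 was high for all.

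Mouse A2 was left out after these values had been seen. Without it, the log2 fold change was −1.35 (standard error 0.351) for Mmp12, −1.51 (standard error 0.297) for Mmp13 and −1.05 (standard error 0.195) for Timp1. For Mmp13 and Timp1 the 5 remaining AZ6983 mice lay below every control. A2 was chosen because it was the AZ6983 mouse that did not, so this follows from the choice and no test is given. For comparison, 0.252% of all genes were lower without overlap when A2 was left out (0.637% in either direction), and nothing is read from these shares, since A2 was not chosen on those genes. With each of the other mice left out in turn, the exact permutation p ran from 0.0238 to 0.0628 for Mmp12, from 0.0433 to 0.0996 for Mmp13 and from 0.0368 to 0.0823 for Timp1, so that it passed 0.05 or not depending on 1 mouse. A2 also had the highest macrophage score of the 12 mice.

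**Figure D3:**
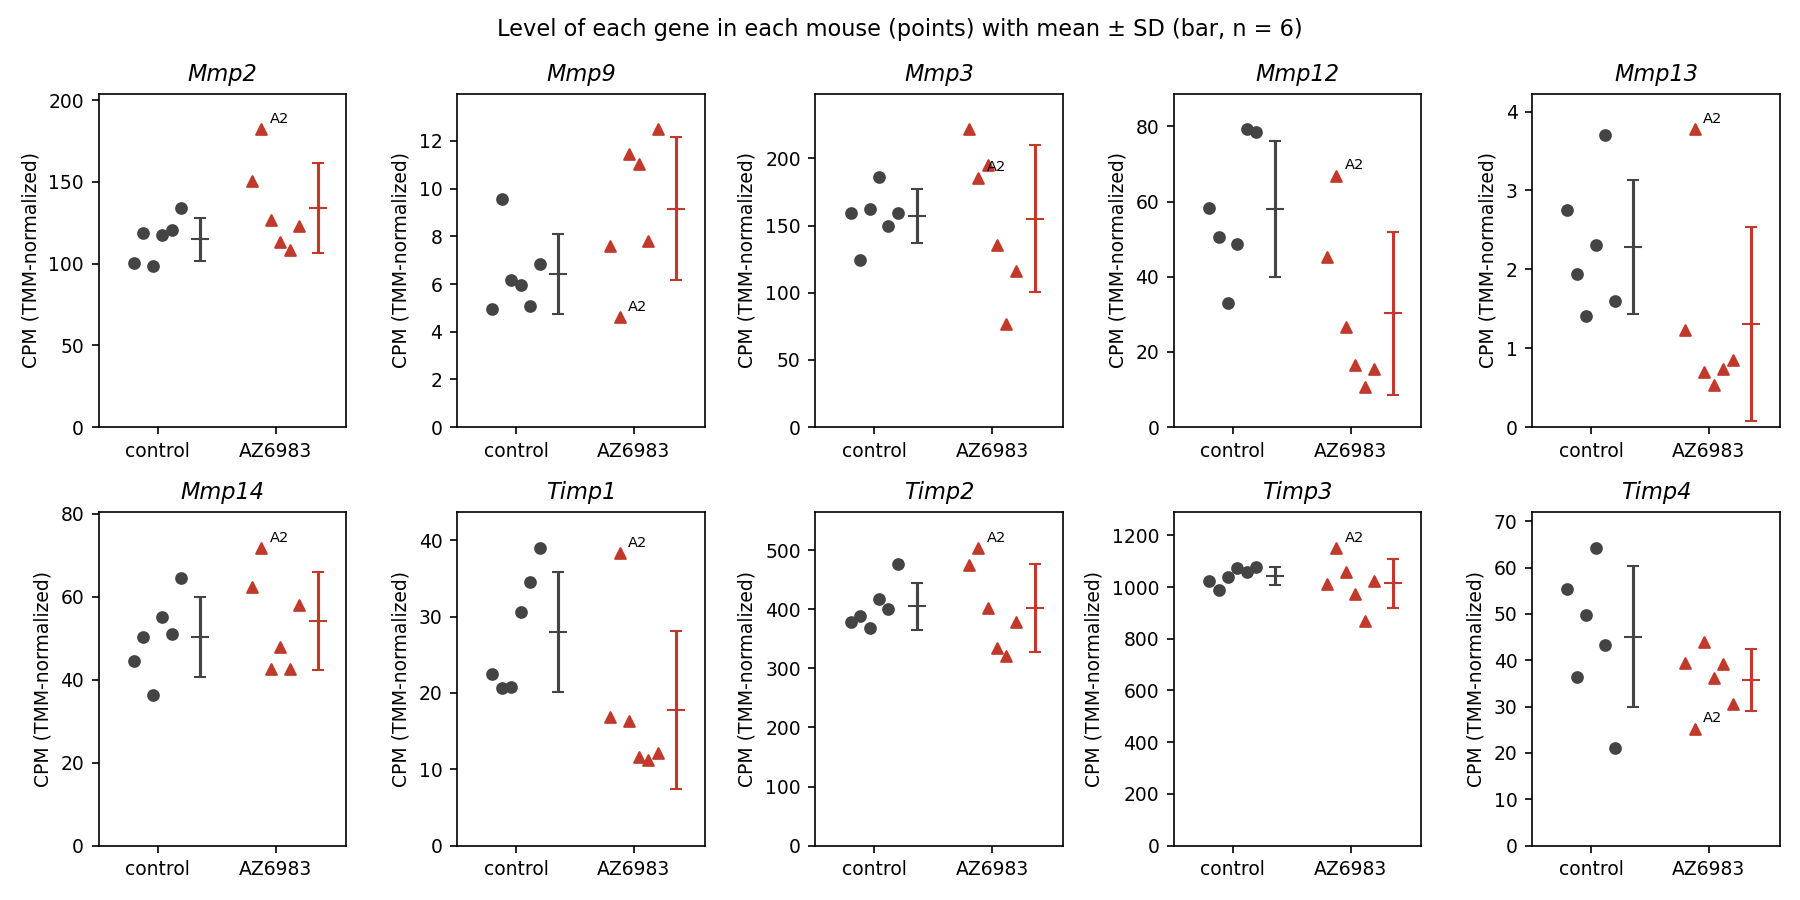
Level of each gene in CPM in each control mouse (circles) and AZ6983 mouse (triangles), with the group mean and SD (bar, n = 6) beside the points and mouse A2 labelled. For Mmp13 and Timp1, 5 of 6 AZ6983 mice lay below every control and A2 lay apart, at 3.78 and 38.3 CPM.

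The levels of these genes varied with those of macrophage genes and, about as closely, with those of bone and osteoclast genes. A score of 13 macrophage genes (mean log2 CPM) was 5.69, 6.18 and 6.51 (lowest, median and highest) in controls and 5.15, 5.82 and 6.61 in AZ6983 mice, a difference of −0.346. As the marker lists were chosen with results of these mice known, no test between the groups is given for a score. For the same reason, the p-values of correlations with a score describe the relation and carry no independent weight. The lists also hold genes named below as most like a member: Gpnmb and Spp1 (macrophage), Atp6v0d2 (bone and osteoclast) and Cd177 (neutrophil granule). Over the 12 mice, Mmp12 correlated with the macrophage score (Pearson's r = 0.940, permutation p = 4e-05, adjusted p = 0.00173, Spearman's rho = 0.902, permutation p = 0.00025, adjusted p = 0.0065). The adjustment covers 130 relations, of 10 genes with 13 marker lists, for Pearson's r and Spearman's rho separately. Without the 2 mice farthest from the median score, A5 and A6, r was 0.873, and it was 0.941 within controls and 0.974 within AZ6983 mice. For Timp1, r was 0.901 (permutation p = 7e-05, adjusted p = 0.00227) and rho 0.902 (permutation p = 0.00019, adjusted p = 0.0065), with r = 0.866 without A5 and A6. For Mmp13, r was 0.763 (permutation p = 0.00412, adjusted p = 0.0295) and rho 0.762 (permutation p = 0.00543, adjusted p = 0.0441), with r = 0.722 without those mice and 0.466 within controls.

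The bone and osteoclast score rested on the 5 of 11 listed genes that were tested, Ibsp, Acp5, Ctsk, Ocstamp and Atp6v0d2, and Acp5, Ctsk and Atp6v0d2 are also known from macrophages. Of the others, Bglap, Bglap2, Dmp1, Sp7 and Dcstamp did not pass the filter (at most 14 counts in a mouse) and Calcr was absent. The score was 2.72, 2.83 and 3.72 (lowest, median and highest) in controls and 1.77, 2.19 and 2.76 in AZ6983 mice, a difference of −0.855. Its r with Mmp12 was 0.919 (permutation p = 1e-05, the smallest that 100000 permutations can give, adjusted p = 0.0013) and rho 0.881 (permutation p = 0.00036, adjusted p = 0.0078), with r = 0.906 without C6 and A6. With Timp1 r was 0.874 (permutation p = 0.00022, adjusted p = 0.00542) and rho 0.895 (permutation p = 0.00022, adjusted p = 0.0065), with r = 0.814 without C6 and A6. With Mmp13 r was 0.716 (permutation p = 0.00907, adjusted p = 0.0491) and rho 0.713 (permutation p = 0.0117, adjusted p = 0.0778), and r was 0.291 within controls. Timp1 also varied with cartilage genes (r = 0.779, permutation p = 0.0035, adjusted p = 0.0284, rho = 0.811, permutation p = 0.00262, adjusted p = 0.0284), with r = 0.648 without C5 and C6. Of the 8 cartilage genes tested, 4 had a positive and 4 a negative log2 fold change, from −4.41 for Col2a1 to 0.29 for Col11a1. Col2a1 had 8 to 796 counts in controls and 3 to 50 in AZ6983 mice. Neutrophil granule genes varied inversely, with r = −0.758 for Mmp12, −0.770 for Mmp13 and −0.834 for Timp1. Within controls these r values were −0.616, −0.368 and −0.791. Endothelial genes also varied inversely, with r = −0.786 for Mmp12, −0.473 for Mmp13 and −0.742 for Timp1. Within controls the endothelial r values were −0.696, 0.11 and −0.790. Within controls and within AZ6983 mice, r of Mmp12 with fibroblast genes was 0.912 and 0.951. The macrophage relation was also found for Timp2 (r = 0.849), Timp3 (r = 0.828) and Mmp3 (r = 0.708, but 0.27 without A5 and A6). Within controls these r values were 0.788, 0.465 and 0.010. The part of each of these cell types in the values of Mmp12, Mmp13 and Timp1 was not tested.

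Of the 13 macrophage genes, 8 had a negative and 5 a positive log2 fold change, and 0 passed 10% FDR in edgeR. From the lowest, the log2 fold changes were −1.19 for Spp1 (osteopontin), −0.75 for Gpnmb, −0.58 for Lgals3, −0.41 for Trem2, −0.25 for Lyz2, −0.09 for C1qb, −0.06 for C1qc and −0.04 for Cd68. The others were 0.0037 for C1qa, 0.03 for Mrc1, 0.09 for Csf1r, 0.10 for Adgre1 and 0.13 for Cd14.

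Among all genes tested, the level of Mmp12 over the 12 mice was most like that of Atp6v0d2 (a subunit of the proton pump of osteoclasts and some macrophages, r = 0.983, rho = 1.0), Gpnmb (r = 0.979, rho = 0.965) and Gusb (a lysosomal enzyme, r = 0.964, rho = 0.867). For Timp1 these were Spp1 (r = 0.970, rho = 0.930), Tnfrsf11b (osteoprotegerin, r = 0.948, rho = 0.944) and Havcr2 (r = 0.946, rho = 0.958). For Mmp13 they were Spp1 (r = 0.930, rho = 0.902), Il1rn (the interleukin 1 receptor antagonist, r = 0.872, rho = 0.839) and Adam9 (r = 0.871, rho = 0.846). These genes were picked as the highest of 15856 and their r carries no test. Leaving out the 2 mice farthest from the median of the like gene gave r = 0.981 for Atp6v0d2 with Mmp12, 0.964 for Spp1 with Timp1 and 0.907 for Spp1 with Mmp13. Between Mmp12 and Timp1 themselves r was 0.918 (permutation p = 3e-05, adjusted p = 0.00135 over 45 pairs of the 10 genes) and rho 0.923 (permutation p = 8e-05, adjusted p = 0.0036), with r = 0.911 without C6 and A2.

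Mmp9, the gelatinase stored in neutrophil granules and also made by macrophages and osteoclasts, lay the other way. It was at 4.95, 6.06 and 9.57 CPM (lowest, median and highest) in controls and at 4.603, 9.42 and 12.5 CPM in AZ6983 mice. The mice A3, A4 and A6 lay above every control, A2 lay below every control, and the highest control was C2. The log2 fold change was 0.51 (standard error 0.233, 95% interval 0.01 to 1.02, unadjusted p = 0.0471 and adjusted p = 0.487 from edgeR), whereas the exact permutation p was 0.102. It had 128 to 415 counts per mouse.

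The level of Mmp9 varied with those of neutrophil granule genes. Their score (8 of 10 listed genes were tested) was 0.80, 1.34 and 2.21 (lowest, median and highest) in controls and 1.47, 2.76 and 4.001 in AZ6983 mice, a difference of 1.42, given with no test. Of these 8 genes, 7 had a positive log2 fold change, from 1.53 for Cd177 to 2.06 for Camp, and Lcn2 had a negative one, −0.38. The summed level of the 8 genes was 26.3 to 64.2 CPM in controls and 36.9 to 252 CPM in AZ6983 mice. S100a8 and S100a9 reached 2257 and 2856 counts in a mouse. The listed genes Elane and Mpo did not pass the filter, with at most 12 and 34 counts in any mouse. Over the 12 mice, r between Mmp9 and the score was 0.876 (permutation p = 0.00025, adjusted p = 0.00542) and rho 0.839 (permutation p = 0.00106, adjusted p = 0.0155). Without A3 and A6 r was 0.778, and it was 0.742 within controls and 0.925 within AZ6983 mice. The most similar genes over the 12 mice were Padi4 (a histone-modifying enzyme of neutrophils, r = 0.924, rho = 0.902), Cd177 (a neutrophil surface protein, r = 0.909, rho = 0.867) and Pglyrp1 (a granule protein, r = 0.897, rho = 0.895). The part of neutrophils in the level of Mmp9 was not tested.

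Mmp9 varied inversely with Mmp13 and Timp1. Its r was −0.848 with Mmp13 (permutation p = 0.00075, adjusted p = 0.00546) and rho −0.860 (permutation p = 0.00056, adjusted p = 0.0125), and r was −0.779 without A2 and A4. With Timp1 r was −0.754 (permutation p = 0.00587, adjusted p = 0.0208) and rho −0.769 (permutation p = 0.00458, adjusted p = 0.0263), and r was −0.751 without C6 and A2. Within controls these r values were −0.557 and −0.273. With Mmp12 r was −0.686 (permutation p = 0.0147, adjusted p = 0.0414) and rho −0.727 (permutation p = 0.00906, adjusted p = 0.0395), r was −0.737 without A5 and A6, and it was −0.203 within controls. Between Mmp9 and the macrophage score r was −0.556 (permutation p = 0.0611, adjusted p = 0.179) and rho −0.664 (permutation p = 0.0222, adjusted p = 0.115), and r was −0.086 within controls.

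**Figure D4:**
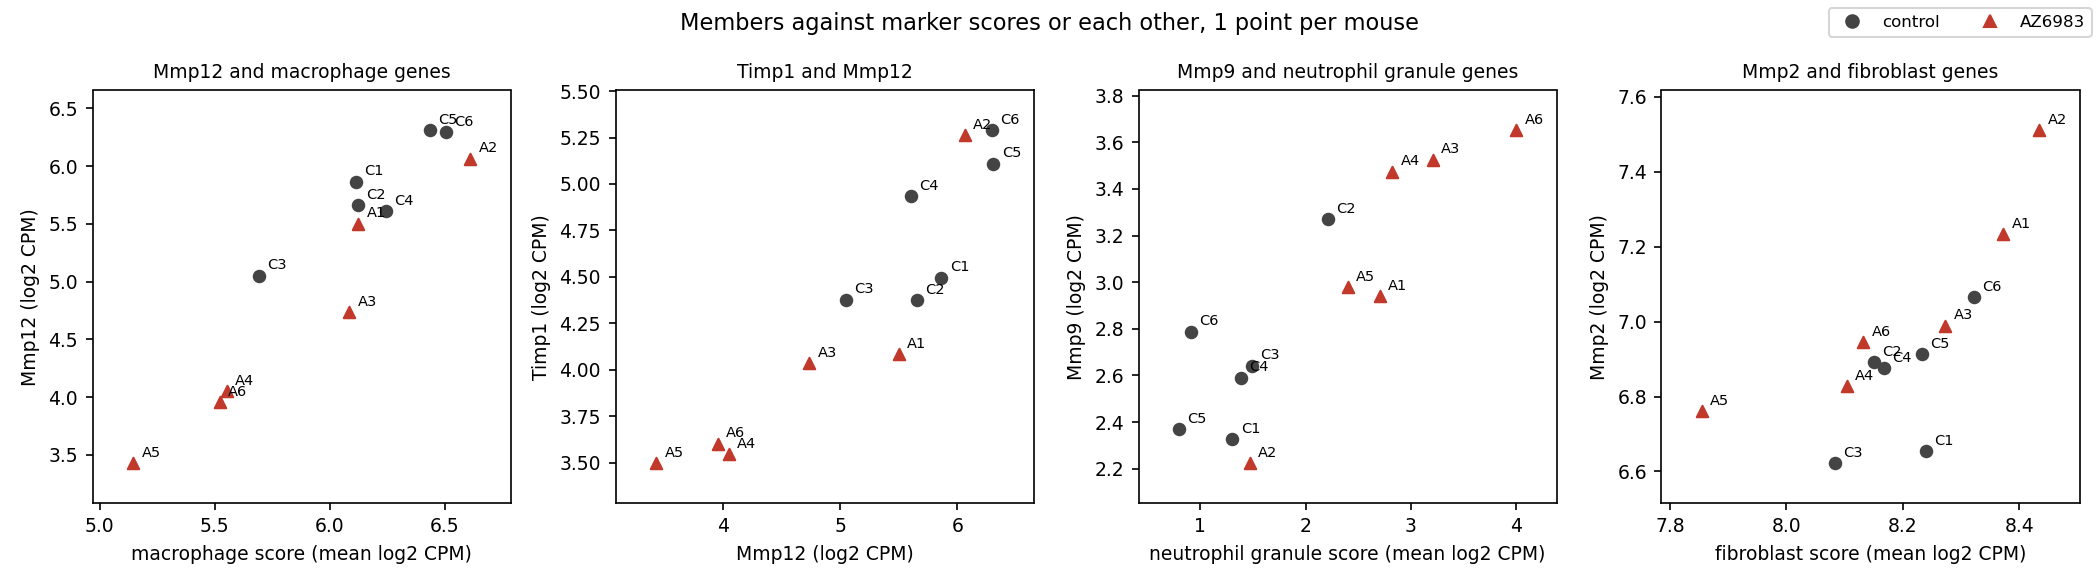
Each panel has 1 point per mouse (circles control, triangles AZ6983), all axes in log2 CPM: Mmp12 against the macrophage score, Timp1 against Mmp12, Mmp9 against the neutrophil granule score and Mmp2 against the fibroblast score. Pearson's r over the 12 mice was 0.940, 0.918, 0.876 and 0.737.

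Mmp2, Mmp14 and Timp2 belong to one pathway, in which MMP14 at the cell surface, with TIMP2 as a bridge, activates pro-MMP2. Mmp2 was at 98.5, 118 and 134 CPM (lowest, median and highest) in controls and at 108, 125 and 182 CPM in AZ6983 mice. Only A1 and A2 lay above every control, and the groups overlapped. The log2 fold change of Mmp2 was 0.22 (standard error 0.125, edgeR's adjusted p = 0.538) with all mice and 0.10 without A2. Mmp14 was at 36.3 to 64.5 CPM in controls and 42.5 to 71.9 CPM in AZ6983 mice. Its log2 fold change, 0.11 with all mice (standard error 0.155, edgeR's adjusted p = 0.815), was −0.0031 without A2. Timp2 was at 368 to 477 CPM and 320 to 504 CPM, a log2 difference of −0.01 (standard error 0.116, 95% interval −0.26 to 0.24, adjusted p = 0.982 from edgeR).

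The level of Mmp2 relative to Timp2 was less variable than either gene. Per length, it was 0.308, 0.325 and 0.353 (lowest, median and highest) in control mice and 0.365, 0.384 and 0.418 in AZ6983 mice. Every AZ6983 mouse lay above every control, a difference of 1.17-fold (0.23 on the log2 scale, exact permutation p = 0.00216, the smallest that 6 against 6 mice allow, not adjusted for the 45 ratios). This was the 1 ratio of 45 between the 10 genes in which the groups did not overlap. Of all genes set against Timp2 in this way, 0.151% did not overlap (0.114% with AZ6983 mice higher), and of all genes set against Mmp2, 0.58%. The ratios were computed after the data had been seen. With each mouse left out in turn the difference stayed between 0.21 and 0.25. Groups that do not overlap stay apart when a mouse is left out, so this follows from the choice of ratio and adds no support. The control nearest to the AZ6983 mice was C2, at 0.353, and C2 also had the largest share of reads on no gene among controls, 12.7%. A1, A3, A4 and A5 had shares of 11.2% to 12.5% and ratios of 0.365 to 0.392. A6, at a share of 13.9%, had a ratio of 0.377. A2 had both the largest ratio and the largest share, 14.9%. In a fit with that share as a covariate, the log2 fold change was 0.03 for Mmp2 and −0.09 for Timp2, where it had been 0.22 and −0.01. The share was higher in AZ6983 mice (median 12.4%, controls 10.1%), so such a fit cannot fully tell the share and the treatment apart. The ratio itself was not fitted with the covariate, and the part of the share in the ratio was not tested.

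**Figure D5:**
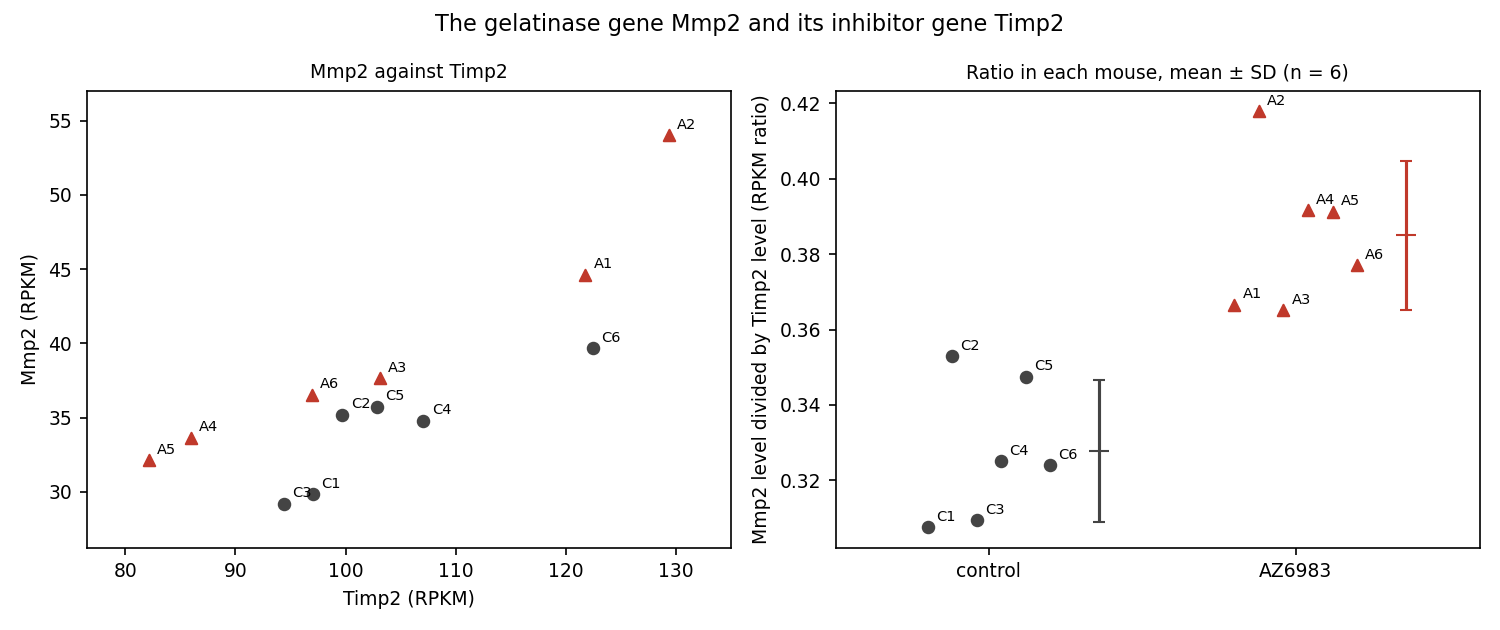
Left, Mmp2 against Timp2 in RPKM, 1 point per mouse. Right, the ratio of these levels in each mouse with the group mean and SD (n = 6, axis not starting at 0), 0.308 to 0.353 in controls and 0.365 to 0.418 in AZ6983 mice.

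Mmp2 and Timp2 varied with fibroblast genes, and Timp2 with macrophage genes as well. With a score of 8 fibroblast genes such as Pdgfra and Dpt, r was 0.737 for Mmp2 (permutation p = 0.00794, adjusted p = 0.0485) and rho 0.790 (permutation p = 0.00317, adjusted p = 0.0304), and r was 0.720 without A2 and A5. For Timp2, r was 0.905 (permutation p = 4e-05, adjusted p = 0.00173) and rho 0.916 (permutation p = 9e-05, adjusted p = 0.0065), and r was 0.845 without those mice. The score itself was 8.08 to 8.32 in controls and 7.86 to 8.43 in AZ6983 mice, a difference of −0.0043. With the macrophage score, r was 0.849 for Timp2 (permutation p = 0.00051, adjusted p = 0.00829) and rho 0.895 (permutation p = 0.0002, adjusted p = 0.0065), and r was 0.816 without A5 and A6. For Mmp2 the r with the macrophage score was 0.569 over all mice (permutation p = 0.0522, adjusted p = 0.167) and rho 0.587 (permutation p = 0.048, adjusted p = 0.178). Within controls and within AZ6983 mice it was 0.858 and 0.930 with macrophage genes, and 0.630 and 0.890 with fibroblast genes. The gene most like Mmp2 was Ptgfrn (r = 0.954, rho = 0.923), followed by Bmp1, the procollagen C-proteinase (r = 0.940, rho = 0.839), and Fam46a (r = 0.936, rho = 0.951). For Mmp14 the order was Il1r1, an interleukin 1 receptor (r = 0.953, rho = 0.930), Zfp46 (r = 0.910, rho = 0.930) and Crtc3 (r = 0.906, rho = 0.881), and for Timp2 it was Itgav, an integrin subunit (r = 0.951, rho = 0.895), Adamtsl3 (r = 0.947, rho = 0.888) and Slc35c2 (r = 0.946, rho = 0.874).

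Mmp3 and Timp3 also had log2 fold changes near 0. Mmp3 was at 124.5, 159 and 186 CPM (lowest, median and highest) in controls and at 77.0, 161 and 222 CPM in AZ6983 mice. Its log2 fold change was −0.02 (standard error 0.212, 95% interval −0.47 to 0.44, adjusted p = 0.984 from edgeR). The AZ6983 mice were spread more widely, with A5 and A6 below every control and A1 and A3 above every control, and the coefficient of variation was 12.8% in controls and 35.2% in AZ6983 mice, a difference that was not tested. Timp3, whose protein also inhibits ADAM proteases, was the steadiest gene, at 988, 1050 and 1079 CPM (lowest, median and highest) in controls and 867, 1018 and 1152 CPM in AZ6983 mice. Its log2 fold change was −0.04 (standard error 0.0754, 95% interval −0.20 to 0.12, adjusted p = 0.861 from edgeR).

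For Mmp3, the most similar genes were Rcn3 (r = 0.956, rho = 0.881), Ddost (r = 0.956, rho = 0.944) and Ctsh (cathepsin H, r = 0.941, rho = 0.874), and for Timp3 they were Sulf1 (r = 0.968, rho = 0.853), Slc1a4 (r = 0.966, rho = 0.902) and Plod2 (a collagen lysyl hydroxylase, r = 0.952, rho = 0.846). These r values were lower without the mice farthest from the median: r for Plod2 with Timp3 was 0.769 without A2 and A5 and r for Ctsh with Mmp3 was 0.799 without A5 and A6. White fat genes varied inversely with both, with r = −0.730 for Mmp3 (permutation p = 0.00821, adjusted p = 0.0485, rho = −0.503, permutation p = 0.1003, adjusted p = 0.274) and r = −0.766 for Timp3 (permutation p = 0.00273, adjusted p = 0.0253, rho = −0.524, permutation p = 0.0851, adjusted p = 0.259). Without A5 and C2 these were −0.283 and −0.439, so that they rested on those mice. Fibroblast genes varied with Mmp3 (r = 0.833, permutation p = 0.00152, adjusted p = 0.018, rho = 0.678, adjusted p = 0.106). They also varied with Timp3 (r = 0.825, permutation p = 0.0021, adjusted p = 0.021, rho = 0.601, adjusted p = 0.168). Without A2 and A5 these r values were 0.65 and 0.35. Within controls they were 0.06 and 0.43, and within AZ6983 mice 0.94 and 0.91. Smooth muscle genes had r = 0.827 with Mmp3, and 0.52 without A5 and C2.

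Timp4, the inhibitor with the most restricted expression, known from heart, fat and vessel, was at 21.1, 46.6 and 64.3 CPM (lowest, median and highest) in controls and 25.2, 37.6 and 43.9 CPM in AZ6983 mice. The lowest mouse was a control, C6, and 3 controls lay above every AZ6983 mouse. Its log2 fold change was −0.34 (standard error 0.222, 95% interval −0.82 to 0.14, adjusted p = 0.585 from edgeR, exact permutation p = 0.323). It was −0.21 without C4 and −0.48 without C6, where the exact permutation p was 0.567 and 0.0281. Over the 12 mice it was most like Exd2 (r = 0.911, rho = 0.979), Sult1a1 (r = 0.910, rho = 0.853) and Sptlc3 (r = 0.907, rho = 0.895). Timp1, Timp3 and Timp4 each overlap a synapsin gene on the opposite strand (Syn1, Syn3 and Syn2). Whether the counting used strand is not given in the sources used here, and Syn2 had 103 to 2190 counts per mouse, beside 619 to 1728 for Timp4, while Syn1 and Syn3 had at most 101 and 73.

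Other genes of the pathway were described from lists of related proteases, activators, inhibitors and substrates. None of the genes tested in these lists passed 10% FDR in edgeR, and the groups overlapped for each of them, where 0.41% of all genes did not. Of 12 other MMPs that are not of the membrane type, 6 were in the table and tested, 3 of them higher and 3 lower in mean. Mmp8, the neutrophil collagenase, had the largest log2 fold change at 1.0 (standard error 0.414, adjusted p = 0.466 from edgeR), and Mmp27 the smallest at −0.33 (standard error 0.234). Of 5 membrane-type MMPs, 3 were tested and lay between −0.02 for Mmp15 and 0.02 for Mmp16.

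Among 17 ADAM and ADAMTS proteases, of which several are inhibited by TIMP3, all were tested, with a median log2 fold change of 0.13. Adamts12 was highest at 0.43 (standard error 0.158, adjusted p = 0.450 from edgeR) and Adam8, a protease of myeloid cells, lowest at −0.39 (standard error 0.287). Of 10 genes of the plasminogen system and the furin family, 8 were tested, from Serpine2 (protease nexin 1) at −0.34 (standard error 0.148) to the convertase gene Pcsk5 at 0.24 (standard error 0.125). Among 8 other inhibitors and surface regulators, 6 were tested. Spock1 lay lowest at −1.69 (standard error 1.03) and Tfpi2 highest at 0.25 (standard error 0.194). Of 12 matrix substrates, 11 had a positive log2 fold change, with a median of 0.19, from Dcn (decorin) at −0.17 (standard error 0.116) to Col1a1 (type I collagen) at 0.47 (standard error 0.235, adjusted p = 0.508 from edgeR).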

How the data were processed

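Stranded total RNA libraries, depleted of ribosomal RNA, were sequenced from 12 mice. The authors deposited raw counts per gene symbol, 1 column per mouse. The submitters' processing notes name CASAVA 1.8.2, STAR 2.5.2b, HTSeq 0.6.1p1 and mm10, while the annotation used for counting is not given in the sources used here. The 3 rows that name no gene (8.02% to 14.9% of reads on no gene, 18.1% to 23.2% with several alignments, 0.606% to 0.698% ambiguous) were left out, so reads shared by similar MMP genes are missing. Groups came from the sample titles. Mice were numbered in accession order, which pairs nothing. The column of A1 holds 3 of the 4 digits of its mouse number, the others the full number.

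All genes were fitted with edgeR 4.0.16 in R 4.3.3 (TMM, filterByExpr, quasi-likelihood test, no covariate) with Benjamini-Hochberg adjustment over the 15857 genes tested and 10% FDR. A standard error is the absolute log2 fold change over the root of its F statistic. Log2 CPM used a prior count of 2. Exact permutation tests used 924 assignments of mice (462 with a mouse left out) and were two-sided, and correlations used 100000 permutations. Lengths came from GENCODE M21, and promoters from RefSeq (GRCm38.p6). DESeq2 1.42.0, limma-voom (limma 3.58.1), other scalings and filters and each mouse left out were alternatives. The edgeR, DESeq2 and limma-voom fits were tested on simulated counts, and the pass mark of that check was lowered after edgeR fell short of it.

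The members and gene lists were chosen with earlier results of these data known. The genes named were the 10 members, the extremes of each pathway list, and the 3 genes most like each member. Marker genes and mouse A2 were singled out after their values were seen. Counts are whole reads or pairs, and precision falls with the count.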

Additional observations from a re-analysis of the deposited data

Results flagged for a closer look

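In log2 CPM, Timp1 in mouse A2 was at 5.26, while the other AZ6983 mice lay between 3.50 and 4.09, and the gap to the nearest mouse was 0.668 of the range of the group (above Dixon's 95% critical value for 6 mice). Of the 20 groups examined, the 10 genes in each treatment group, 1 had such a mouse, as many as chance gives (1 in 20). A2 was also the highest AZ6983 mouse for Mmp12, Mmp13, Mmp2, Mmp14, Timp2 and Timp3 and the lowest for Mmp9 and Timp4, with a macrophage score of 6.61, the highest of the 12 mice, and a neutrophil granule score of 1.47, the lowest of the AZ6983 mice. It had the largest share of reads on no gene, 14.9%. The part of these in the level of Timp1 was not tested.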

How the results depend on the processing

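None of the 10 genes passed 10% FDR under any alternative run: another scaling, another filter, 5% FDR, DESeq2, limma-voom, a covariate, each mouse left out, or A4 and A5 left out together (added after the data were seen). Mmp2, Mmp9, Mmp12, Mmp13 and Timp1 kept their direction in all of these, but not their size. The count over all genes was 0 in edgeR and 92 with DESeq2 on every gene, 84 with DESeq2 on filtered genes, 2 with library totals only and 4 with limma-voom and quality weights. With a mouse left out it ran from 0 to 27 genes, the highest without A5. With the percentage of reads outside genes as a covariate, the log2 fold change was 0.03 for Mmp2, 0.32 for Mmp9, −1.57 for Mmp13 and −1.17 for Timp1, and it turned in sign for Mmp3 (0.20), Mmp14 (−0.10) and Timp4 (0.18, from −0.34). Timp2 was at 0.017 with limma-voom and quality weights. Without A4 and A5, Mmp2 was at 0.33, Mmp12 at −0.60, Mmp13 at −0.49 and Timp1 at −0.43, and Mmp3 (0.18), Timp2 (0.10) and Timp3 (0.0092) turned in sign. With a mouse left out, Mmp3 ran from −0.15 to 0.10, Timp2 from −0.10 to 0.042 and Mmp14 from −0.0031 to 0.19. The cause was not tested. Leaving out A2 moved Mmp13 from −0.81 to −1.51, Timp1 from −0.66 to −1.05 and Mmp2 from 0.22 to 0.10. No paired analysis was possible because the mice carry unique numbers. Mmp13, with as few as 18 counts in a mouse, had the largest standard error of the 10 genes with all mice, 0.456. Without A2 its standard error was 0.297, below the 0.351 of Mmp12.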

Other observations

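The level of Mmp9 relative to Timp1 varied widely from mouse to mouse. Per length, it was 0.0371, 0.0521 and 0.116 (lowest, median and highest) in control mice and 0.0302, 0.175 and 0.259 in AZ6983 mice. Of the AZ6983 mice, A3, A4, A5 and A6 lay above every control, A1 was close to the highest control and A2 was below all. The difference was 1.23 on the log2 scale (exact permutation test, two-sided, p = 0.0498, not adjusted for the 45 ratios of the 10 genes). Mmp12 relative to Timp1 was 0.196 to 0.318 in controls and 0.117 to 0.329 in AZ6983 mice, and the log2 difference of −0.42 had an exact permutation p of 0.119. For the other proteases relative to Timp1, the log2 difference was 0.97 for Mmp2, 0.86 for Mmp14, 0.67 for Mmp3 and −0.33 for Mmp13. Their exact permutation p was 0.00433, 0.00649, 0.0411 and 0.2835, also not adjusted. Timp1 is part of each of these ratios, and no share over all genes is given for ratios to Timp1.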
